A study of Arabidopsis thaliana with 12 samples.

Results

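The tau and phi classes are the main plant-specific groups of glutathione S-transferases, and their transcripts were followed here in rosettes of Arabidopsis thaliana that lacked or overproduced LSD1, a zinc-finger protein that restrains cell death. The members were all genes named GSTU1 to GSTU28 (tau) and GSTF2 to GSTF14 (phi), 41 of the 27416 gene models in the count table, chosen by name and not by level. The choice of this family was made with earlier results of these data known. Of these 41, 28 are tau and 13 are phi genes. A filter on low counts left 37 members for testing, 26 tau and 11 phi, among 19487 genes tested in all. GSTU14, GSTU21, GSTF5 and GSTF13 did not pass it and reached at most 1.91, 1.02, 0.194 and 1.43 CPM in any library (counts scaled to a common library size).

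All 12 samples were 2-week-old rosettes of the accession Ws-0, grown on MS medium with 16 h of light a day. Light was given at 100 µmol in every group. Each of 4 groups had 3 biological replicates: untreated wild type, the untreated mutant lsd1-1, an untreated line carrying 35S:LSD1-GFP (LSD1-GFP), and a dexamethasone-treated line carrying 35S:LSD1-GR (LSD1-GR+DEX). The 35S promoter drives strong expression in most plant tissues. GFP is a fluorescent protein, and GR is a steroid-binding domain that holds a fused protein outside the nucleus until a steroid such as dexamethasone is given. Seedlings of the LSD1-GR line alone had grown on nylon mesh and were moved to 30 µM dexamethasone. Effects of the transgene, of dexamethasone and of being moved therefore cannot be told apart in that group. No line with GFP alone was analysed here. The labels do not say whether the transgenes sit in a wild-type or a mutant background, or how many independent lines were used.

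Glutathione S-transferases join the tripeptide glutathione to reactive electrophiles, which include herbicides, oxidised lipids and products of the plant's own secondary metabolism. The conjugates are then moved to the vacuole by ABC transporters and broken down there. Many tau and phi genes are known as stress-responsive genes, induced by oxidants, salicylic acid, oxylipins or xenobiotics through TGA factors that bind promoter elements with the core TGACG. Single members have assigned roles, such as GSTF6 in camalexin synthesis, GSTF12 (TRANSPARENT TESTA 19) in moving anthocyanins to the vacuole, and GSTU20 and GSTF11 in glucosinolate synthesis.

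Library totals ran from 9781360 to 11503432 counts. LSD1 checked the labels: it stood at 23.6 ± 1.87 CPM (SD, n = 3) in wild type, at 2351 ± 305 in LSD1-GFP and at 178 ± 36.8 in LSD1-GR+DEX, and lsd1-1 had 3 counts in all 3 libraries together against 756 in wild type. Leaf mesophyll markers were abundant in all groups. The sum of 9 root markers was 1052 to 1343 CPM in wild type, 1125 to 1298 in lsd1-1, 1337 to 1989 in LSD1-GFP and 2618 to 2881 in LSD1-GR+DEX, with no marker at 0 in any library. PYK10 supplied most of this sum. The other 8 root markers summed to 98.0 to 104 CPM in wild type, 119 to 130.3 in lsd1-1, 96.2 to 114 in LSD1-GFP and 159 to 243 in LSD1-GR+DEX, so lsd1-1 lay above wild type without overlap. Of 4 vascular and 4 guard cell markers, edgeR's test called 0 in each comparison with wild type, and 0 had an unadjusted p below 0.05. The 4 flower markers were near 0, with a sum of 3.95 to 5.38 CPM in wild type and 2.03 to 2.52 in LSD1-GFP. Of the 2 flower markers that could be tested, AP1 was called lower in LSD1-GFP (-1.32, SE 0.43, adjusted p = 0.0337), and both had an unadjusted p below 0.05 there. Some libraries stood apart from the others of their group. The chi-square per degree of freedom between libraries was 11.4 and 13.2 for LSD1-GR+DEX replicate 2 against replicates 1 and 3, which differed from each other by 2.21. Wild-type replicate 3 gave 10 and 10.8 against replicates 1 and 2, which differed by 3.35. In whole rosettes, fewer cells of a type and less RNA per cell cannot be told apart.

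The members lie on all 5 chromosomes, 23 on chromosome 1 and 11 on chromosome 2, and 29 of the 41 sit in 9 tandem arrays whose neighbours are less than 15 kb apart. The largest array holds GSTU1 to GSTU7 within 14.6 kb (TAIR10.1, chr2:12617936-12632538). Proteins of 208 to 263 residues are encoded, and the median identity between 2 proteins was 38.6% among tau members, 39.3% among phi members and 20.2% between the classes. GSTF2 with GSTF3 (92.5%) and GSTF6 with GSTF7 (93.3%) were the only pairs above 90%, so the split of reads within these pairs is uncertain. GSTF2 also overlaps the gene AT4G02510 on the other strand over 1442 bases, and 12 members overlap another gene in all. The strand setting of the counting is not given in the sources used here.

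TGACG is the core of the element through which GSTF8 and other members are known to respond to stress. Upstream sequences are shown for 6 members that all carry TGACG and differ in response. Each is the last 200 bases before the start of the transcript model, 5′ to 3′ on the gene's strand, from the RefSeq TAIR10.1 genome of the accession Col-0 and not of Ws-0. Capitals mark TGACG or its reverse complement CGTCA. GSTU3 (chr2:12629641-12629840, minus strand), GSTU9 (chr5:25089627-25089826, minus), GSTU5 (chr2:12625791-12625990, minus) and GSTU25 (chr1:5871824-5872023, plus) rose in LSD1-GR+DEX, as did GSTF8 (chr2:19556126-19556325, plus). GSTU7 (chr2:12618900-12619099, minus) was not called against wild type in any group, yet it holds the most matches, 3, of which 2 share bases.
GSTU3: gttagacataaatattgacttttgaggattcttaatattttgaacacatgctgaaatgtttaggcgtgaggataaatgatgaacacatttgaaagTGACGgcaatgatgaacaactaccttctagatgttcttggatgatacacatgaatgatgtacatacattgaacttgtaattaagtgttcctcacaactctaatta
GSTU9: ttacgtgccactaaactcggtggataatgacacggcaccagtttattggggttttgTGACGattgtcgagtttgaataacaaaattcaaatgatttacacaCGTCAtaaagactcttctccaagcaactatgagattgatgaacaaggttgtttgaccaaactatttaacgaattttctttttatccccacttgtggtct
GSTU5: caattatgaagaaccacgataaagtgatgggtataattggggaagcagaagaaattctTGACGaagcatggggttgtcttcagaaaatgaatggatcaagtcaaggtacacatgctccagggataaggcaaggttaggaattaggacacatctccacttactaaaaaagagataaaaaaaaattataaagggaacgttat
GSTU7: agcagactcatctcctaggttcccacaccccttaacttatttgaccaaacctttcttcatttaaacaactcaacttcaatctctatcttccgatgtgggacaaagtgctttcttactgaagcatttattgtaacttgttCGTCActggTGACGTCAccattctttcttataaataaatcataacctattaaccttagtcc
GSTU25: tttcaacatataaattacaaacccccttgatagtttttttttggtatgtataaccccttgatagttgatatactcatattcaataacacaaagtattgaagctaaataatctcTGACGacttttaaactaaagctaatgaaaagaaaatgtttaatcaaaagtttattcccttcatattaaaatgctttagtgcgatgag
GSTF8: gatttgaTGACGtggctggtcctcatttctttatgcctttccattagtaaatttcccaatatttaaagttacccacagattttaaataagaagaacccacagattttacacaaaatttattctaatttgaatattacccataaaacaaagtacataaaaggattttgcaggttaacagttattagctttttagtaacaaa

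In the 300 bases upstream, TGACG on either strand was found in 17 of 41 members and in 21.6% of the 26706 upstream regions of that length. At least 2 matches were found in 4 of 41 members (GSTU1, GSTU5, GSTU7 and GSTU9) against 4.08% of all regions. A related motif, TTGAC, the core of the W-box bound by WRKY factors, was found in 26 of 41 members against 50.4%. It shares bases with TGACG where TTGACG occurs. The G-box CACGTG was found in 3 members (GSTU17, GSTU18 and GSTF6) against 7.37%. These matches are descriptions of sequence, and binding was not measured.

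Levels differed widely among members, and a few genes held most of the transcripts of each class. Per kilobase of transcript, wild-type levels ran from 0.151 ± 0.0669 CPM per kb for GSTF5 upward. GSTF2 stood first at 570 ± 83.1 CPM per kb (SD, n = 3), followed by GSTU19 at 361 ± 9.41, GSTF9 at 258 ± 28.9 and GSTU5 at 216 ± 62.5. GSTF2 and GSTU19 did not overlap with the next member, whereas GSTF9, GSTU5 and GSTF8 (160 ± 18.0) overlapped with their neighbours in this order. GSTF2, which binds indole compounds such as camalexin, supplied 48.3% of the summed phi counts in wild type, and GSTU19 supplied 28.7% of the tau counts. The order changed with the group. GSTF2 led again in lsd1-1 (1153 ± 28.7) and in LSD1-GR+DEX (1058 ± 16.9), but it was the fifth in LSD1-GFP at 316 ± 23.3, where GSTF9 stood first at 568 ± 85.2. In LSD1-GFP GSTF9 overlapped with GSTU5, the next in order, and GSTF2 with GSTF8, and in LSD1-GR+DEX GSTF2 overlapped with GSTU5.

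Summed over the class, phi transcripts were 1697, 1908 and 1605 CPM in the 3 wild-type libraries and 3136, 3398 and 3164 in lsd1-1. The LSD1-GFP libraries held 1900.3, 2258 and 2006 CPM and the LSD1-GR+DEX libraries 3944, 4398 and 3960.2. The lsd1-1 and LSD1-GR+DEX libraries lay above all wild-type and LSD1-GFP libraries, and LSD1-GFP overlapped with wild type. Tau transcripts summed to 1384, 1577 and 1266 CPM in wild type and to 1957, 2353 and 1793 in lsd1-1. Libraries of LSD1-GFP held 2129, 2771 and 1995 CPM of tau transcripts, and those of LSD1-GR+DEX 2749, 3746 and 2695. For tau, all other groups lay above wild type, and lsd1-1 and LSD1-GFP overlapped.

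**Figure D1:**
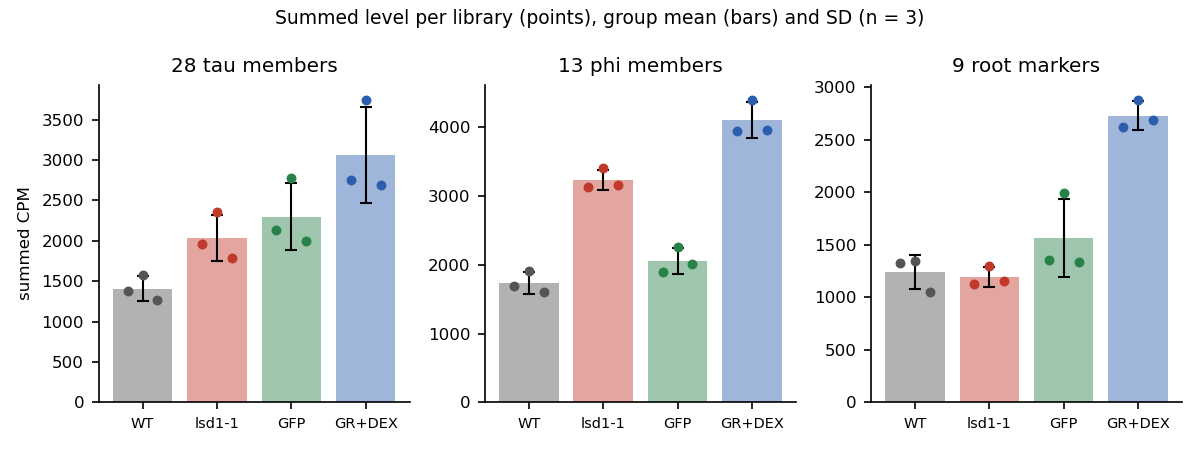
Summed CPM of the 28 tau members, the 13 phi members and 9 root markers in each library (points), with group means (bars) and SD (n = 3). The phi sum was high in lsd1-1 and LSD1-GR+DEX, the tau sum was above wild type in all other groups, and the root marker sum was highest in LSD1-GR+DEX.

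Loss of LSD1 was accompanied by higher levels of 13 members, 7 tau and 6 phi, and by no lower member. That is 35.1% of the 37 tested members, while 8.3% of all genes tested were called, 5.19% higher and 3.1% lower. A member was called where edgeR's quasi-likelihood test gave a Benjamini-Hochberg adjusted p below 0.05 over all genes tested. The median log2 difference was 0.44 over the members and -0.01 over all genes. At an unadjusted p below 0.05, 20 members were higher and 1 lower, and the share of all genes at that cut was not counted. DESeq2 and limma voom called 15 and 14 members higher and 0 lower. Over all 19487 genes they called 1793 (1147 higher) and 1665 (1038 higher). Rises of the 13 members ran from GSTF10 (0.44) to GSTU3 (5.43). GSTU3, GSTU11 and GSTU12 are among the 13. They had 14, 15 and 16 counts in all in wild type and passed the low-count filter only through groups where they were high.

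GSTU3 (AT2G29470) was nearly silent in wild type, at 0.386, 0.718 and 0.189 CPM in replicates 1 to 3, or 14 counts in all, and stood at 25.9, 11.97 and 19.98 CPM in lsd1-1. All lsd1-1 libraries were far above wild type, a log2 difference of 5.43, SE 0.62, adjusted p = 0.0004. GSTU4 (AT2G29460), its neighbour in the same array, rose from 18.7, 26.7 and 11.7 CPM in wild type to 71.2, 72.8 and 47.5 in lsd1-1, a difference of 1.74, SE 0.32, adjusted p = 0.00953. The groups did not overlap for either gene.

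GSTF6 (AT1G02930), which makes the glutathione conjugate on the way to the antimicrobial compound camalexin, stood at 51.5, 74.5 and 44.3 CPM in wild type and at 226, 264 and 199 in lsd1-1 (2.01, SE 0.25, adjusted p = 0.000722). GSTF7 (AT1G02920), its near-identical neighbour, stood at 41.9, 53.1 and 31.7 and 162, 186 and 129 CPM (1.91, SE 0.25, adjusted p = 0.00104). Every lsd1-1 library exceeded every wild-type library for both. GSTF2 (AT4G02520) was the most abundant member that rose, from 848, 956 and 712 to 1745, 1665 and 1681 CPM (1.02, SE 0.10, adjusted p = 3.71e-05). AT4G02510, which overlaps it on the other strand, was not called (-0.20, SE 0.14, adjusted p = 0.494). GSTF3 (AT2G02930), the near-identical copy of GSTF2, had a far lower level and moved from 11.96, 12.3 and 11.2 to 19.1, 19.9 and 22.8 CPM (0.80, SE 0.11, adjusted p = 0.000591).

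GSTU10 (AT1G74590) rose from 7.62, 6.37 and 5.67 CPM to 17.05, 12.5 and 14.98 (1.18, SE 0.18, adjusted p = 0.000968), and GSTU9 (AT5G62480) from 13.02, 14.2 and 8.504 to 24.99, 29.97 and 20.8 (1.08, SE 0.26, adjusted p = 0.029). GSTF8 (AT2G47730), a gene long used as a marker of early stress responses, rose from 246, 309 and 280.1 to 419, 602 and 454 CPM (0.82, SE 0.18, adjusted p = 0.013), without overlap. GSTU19 (AT1G78380), the most abundant tau member in wild type, changed less, from 405, 414 and 393 to 568, 568 and 522 CPM (0.45, SE 0.11, adjusted p = 0.0251). The low members GSTU11 (3.15, SE 0.71, adjusted p = 0.0166) and GSTU12 (2.05, SE 0.50, adjusted p = 0.0192) were below 1 CPM in wild type and also rose. Of the root markers, 1 of 9 was called higher in lsd1-1, BGLU22 (0.35, SE 0.10, adjusted p = 0.0477).

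Some of the 13 calls depended on single libraries. Without wild-type replicate 1, 7 members were called, and without wild-type replicate 3, 8 members. All genes called were then 764 and 1060, in place of 1617. GSTU9, GSTU11, GSTU12, GSTU19 and GSTF8 were lost in both cases, and GSTU4 without wild-type replicate 1. GSTU3, GSTU10, GSTF2, GSTF3, GSTF6, GSTF7 and GSTF10 were called whichever library was left out. Same-numbered libraries of these groups deviated together, and with the replicate number as a block 20 members were called, all higher. All genes called then rose to 2889, 1750 higher. The block added GSTU5 (1.02, adjusted p = 1.06e-08), GSTU6 (0.82, adjusted p = 0.00517), GSTU15 (0.37, adjusted p = 0.0316), GSTU17 (0.50, adjusted p = 3.25e-05), GSTU20 (0.26, adjusted p = 0.0216), GSTU24 (1.02, adjusted p = 0.0159) and GSTF9 (0.31, adjusted p = 0.014).

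**Figure D2:**
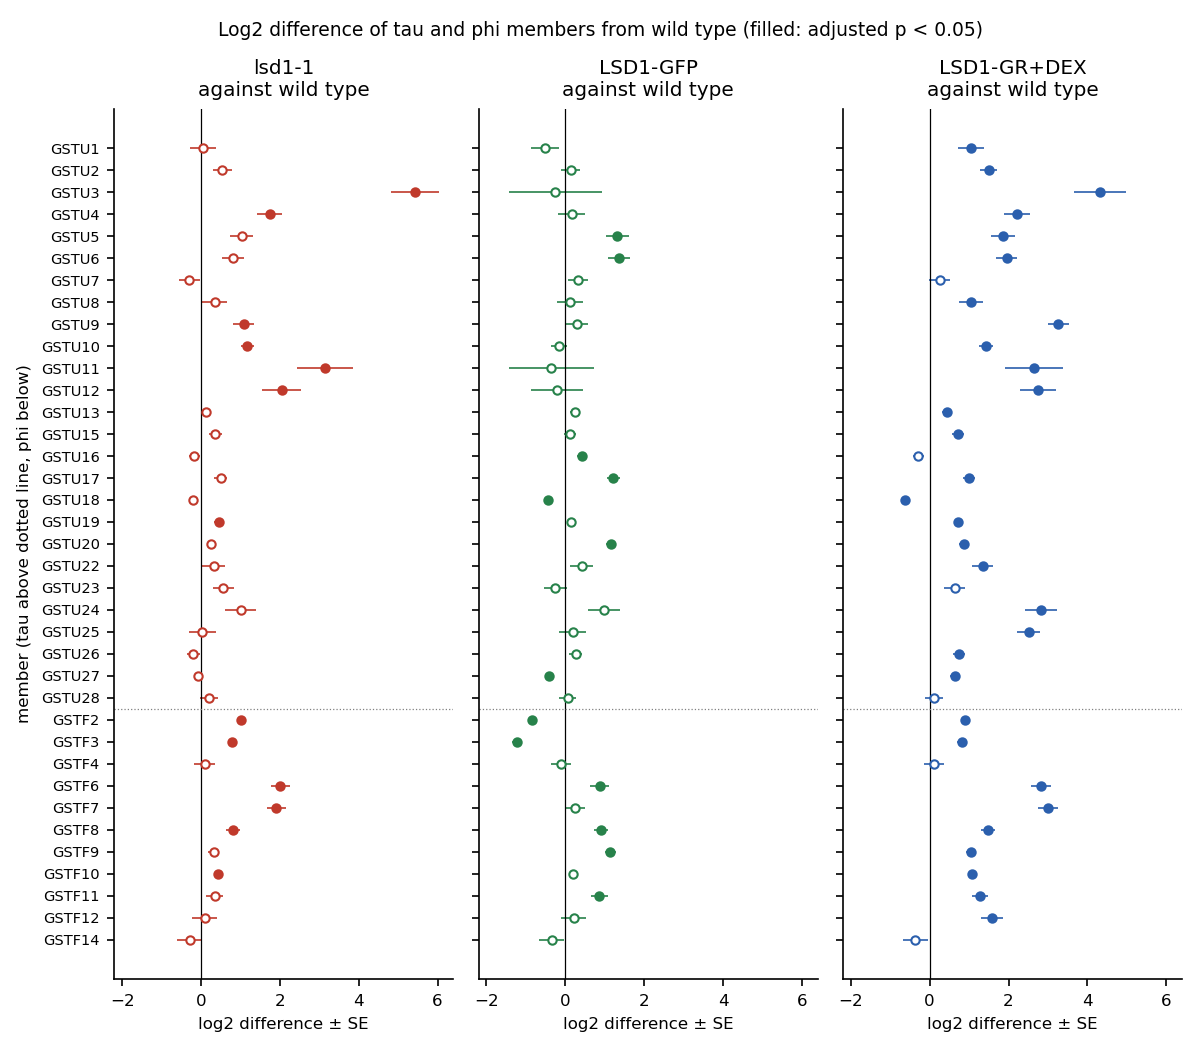
Log2 difference from wild type (x axis, with SE) for the 37 tested members (y axis) in lsd1-1, LSD1-GFP and LSD1-GR+DEX. Filled points passed the test, 13 in lsd1-1, 13 in LSD1-GFP and 31 in LSD1-GR+DEX. The 3 panels share the wild-type libraries.

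Surplus LSD1 in LSD1-GFP was accompanied by changes in both directions, with 9 members higher and 4 lower than wild type. Background in this comparison was wide, as 29.1% of all genes were called, 15.5% higher and 13.6% lower. Of the 37 tested members 35.1% were called, 24.3% higher and 10.8% lower, so the count lies near the share of all genes. The median log2 difference was 0.18 over the members and 0.00 over all genes. GSTU5 (AT2G29450), GSTU20 (AT1G78370) and GSTF9 (AT2G30860), all abundant in wild type, were among the members that rose, and GSTF2 was among those that fell. Leaf mesophyll markers were also higher, 4 of 4, with a sum of 30475 to 36175 CPM against 19461 to 24758 in wild type, and their part in the result was not tested.

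GSTU5 rose from 245, 364 and 214 CPM in wild type to 643, 862 and 554 in LSD1-GFP (1.32, SE 0.30, adjusted p = 0.00728). GSTU6 (AT2G29440), its neighbour, rose from 2.31, 4.49 and 2.46 to 6.94, 9.74 and 7.21 CPM (1.36, SE 0.28, adjusted p = 0.00229). Neither gene overlapped between the groups. GSTU17 (AT1G10370), known as ERD9 and as a regulator of glutathione balance and drought tolerance, stood at 136, 170.2 and 118 CPM in wild type and 318, 389 and 279 in LSD1-GFP (1.22, SE 0.16, adjusted p = 0.000174). GSTU20, tied to glucosinolate synthesis and to jasmonate and far-red signalling, rose from 156, 178 and 167 to 326, 427 and 369 CPM (1.16, SE 0.13, adjusted p = 1.92e-05). All LSD1-GFP libraries were above wild type for both genes.

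GSTF9 rose from 294, 299.8 and 359 to 579, 764 and 759 CPM (1.14, SE 0.13, adjusted p = 3.6e-05) and GSTF8 from 246, 309 and 280.1 to 469, 601 and 486 (0.90, SE 0.18, adjusted p = 0.00227). GSTF11 (0.86, SE 0.21, adjusted p = 0.00786) and GSTU16 (0.42, SE 0.13, adjusted p = 0.0283) were also called higher. GSTF6 was called higher (0.87, SE 0.25, adjusted p = 0.0209) although its libraries overlapped, at 96.4, 144 and 71.5 CPM in LSD1-GFP. The call of GSTF6 was lost when the counts of GSTF6 and GSTF7 were summed (0.64, adjusted p = 0.0733).

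GSTF2 fell from 848, 956 and 712 CPM to 502, 435 and 457 (-0.85, SE 0.10, adjusted p = 3.58e-05) and GSTF3 from 11.96, 12.3 and 11.2 to 5.33, 4.45 and 5.38 (-1.23, SE 0.13, adjusted p = 1.57e-05). No LSD1-GFP library reached wild type for either. The overlapping gene AT4G02510 was also lower (-0.55, SE 0.14, adjusted p = 0.0111), and its part in the GSTF2 value was not tested. GSTU18 (AT1G10360), the downstream neighbour of GSTU17, fell from 99.5, 95.1 and 96.2 to 77.1, 64.8 and 70.8 CPM (-0.45, SE 0.08, adjusted p = 0.00094), and GSTU27 (AT3G43800) from 47.7, 46.3 and 37.8 to 36.9, 31.7 and 30.7 (-0.41, SE 0.12, adjusted p = 0.0172).

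In edgeR fits that each left out 1 library, the calls of GSTU16, GSTU27 and GSTF6 were lost in at least 1 case and the other 10 were kept. GSTU16, for example, reached an adjusted p of 0.138 without LSD1-GFP replicate 2, GSTU27 one of 0.0715 without wild-type replicate 1, and GSTF6 one of 0.0864 without wild-type replicate 3. With the replicate number as a block, GSTU24 (0.93, adjusted p = 0.0109) and GSTF10 (0.20, adjusted p = 0.037) were called higher and GSTU1 lower (-0.56, adjusted p = 0.0462). All genes called then moved from 5662 to 7309, 3896 higher and 3413 lower.

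LSD1-GR+DEX had the widest change, with 30 of 37 tested members higher than wild type, 21 tau and 9 phi, and 1 lower. The 30 include GSTU3, GSTU11 and GSTU12, which passed the low-count filter only through groups where they were high. Among all genes, 36% were called, 19.3% higher and 16.7% lower. The median log2 difference was 1.05 over the members and 0.01 over all genes. In the same libraries 5 of 9 root markers were called higher (PYK10, BGLU22, TIP2;3, COBL9 and EXPA7), with differences of 0.92 to 1.21, and 2 of 4 leaf mesophyll markers were lower. At an unadjusted p below 0.05 in edgeR's test, 7 root markers were higher and 0 lower. At that cut, 2 leaf mesophyll markers were lower and 1 was higher. In replicate 2 TIP2;3, COBL9 and EXPA7 lay within the wild-type range, at 11.8, 2.60 and 2.40 CPM, against 45.46 and 45.49, 6.62 and 7.44, and 8.05 and 6.77 in replicates 1 and 3, whereas PYK10 and BGLU22 were above wild type in all 3 libraries. Most members had their highest level in replicate 2, and without it 34 of 39 tested members were called, 31 higher. Over all genes 6526 of 19690 tested were then called, 3359 higher. The part of the root and leaf markers in the result was not tested. The only lower member was GSTU18, from 99.5, 95.1 and 96.2 CPM to 59.7, 66.8 and 63.6 (-0.61, SE 0.08, adjusted p = 6.89e-05).

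GSTU3 stood at 6.801, 15.8 and 4.29 CPM in LSD1-GR+DEX (4.32, SE 0.66, adjusted p = 0.000481) and GSTU9 at 101, 151 and 92.5 (3.27, SE 0.26, adjusted p = 5.47e-06). The GSTU9 level was 9.63-fold that of wild type. GSTF6 reached 398, 426 and 386 CPM (2.83, SE 0.25, adjusted p = 1.53e-05) and GSTF7 335, 356 and 325 (3.00, SE 0.26, adjusted p = 1.08e-05). For these 4 genes every treated library was above every wild-type library.

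GSTU24 (AT1G17170) and GSTU25 (AT1G17180), known for detoxifying the explosive trinitrotoluene, lie side by side on chromosome 1. GSTU24 rose from 22.9, 26.4 and 14.7 CPM in wild type to 136, 196 and 125 (2.83, SE 0.40, adjusted p = 0.000526). GSTU25 rose from 2.12, 1.97 and 1.98 to 8.32, 17.3 and 9.25 (2.51, SE 0.28, adjusted p = 1.78e-05), and stood at 2.42, 1.67 and 2.14 CPM in lsd1-1 (0.03, SE 0.34, adjusted p = 0.975) and 1.81, 2.65 and 2.44 in LSD1-GFP (0.18, SE 0.34, adjusted p = 0.73). GSTU25 overlapped with wild type in both untreated lines.

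GSTU4 stood at 75.3, 118 and 71.9 CPM (2.21, SE 0.32, adjusted p = 0.000529), GSTU5 at 822, 1345 and 812 (1.85, SE 0.30, adjusted p = 0.000915) and GSTU10 at 21.03, 15.00 and 16.9 (1.43, SE 0.17, adjusted p = 3.29e-05). GSTF8 reached 656, 985 and 673 CPM (1.47, SE 0.18, adjusted p = 5.91e-05) and GSTF2 1548, 1585 and 1537 (0.89, SE 0.10, adjusted p = 1.62e-05). All were above wild type in every library. GSTF12 (AT5G17220) rose from 1.83, 3.14 and 1.701 to 5.82, 7.59 and 6.68 CPM (1.58, SE 0.29, adjusted p = 0.000782), and was not called in lsd1-1 (0.09, SE 0.32, adjusted p = 0.919) or LSD1-GFP (0.21, SE 0.32, adjusted p = 0.667). The end of GSTF12 overlaps AT5G17230 on the other strand over 108 bases, and that gene was at 443 CPM in wild type and was not called in LSD1-GR+DEX (-0.01, SE 0.08, adjusted p = 0.927).

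Other members that rose in LSD1-GR+DEX had differences from 0.44 for GSTU13, which takes part in the turnover of indole glucosinolates, to 2.75 for GSTU12. GSTU7, GSTU16, GSTU23, GSTU28, GSTF4 and GSTF14 were not called, with differences of -0.36 to 0.63 and adjusted p from 0.0748 to 0.779 in edgeR's test. In fits that each left out 1 library, 29 of the 31 calls were kept, while GSTU1 (adjusted p = 0.0961 without wild-type replicate 3) and GSTU11 (adjusted p = 0.0637 without wild-type replicate 1) were lost. GSTU11 also did not pass the filter when LSD1-GR+DEX and wild type were fitted alone. Of the 30 members that rose here, 16 carry TGACG in the 300 bases upstream, as does GSTU7 among the 6 members not called. TGACG was present in 6 of 13 higher and 11 of 24 uncalled members in lsd1-1, and in 3 of 9 higher and 12 of 24 uncalled members in LSD1-GFP.

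Setting lsd1-1 directly against LSD1-GFP asked which members differed between loss and surplus of LSD1. Of the 37 members, 13 were higher in lsd1-1 and 4 lower, where 26.5% of all genes were called, 12.8% higher and 13.6% lower. Again the 13 include GSTU3, GSTU11 and GSTU12, which passed the filter only through groups where they were high. GSTF2 (1.87, SE 0.10, adjusted p = 6.91e-08) and GSTF3 (2.03, SE 0.12, adjusted p = 1.86e-07) were above wild type in lsd1-1 and below it in LSD1-GFP, and had the lowest adjusted p of the members. GSTU3 (5.69, SE 0.64, adjusted p = 9.66e-05), GSTU4 (1.57, SE 0.32, adjusted p = 0.00514), GSTU10 (1.34, SE 0.18, adjusted p = 0.00011), GSTF6 (1.14, SE 0.24, adjusted p = 0.00525) and GSTF7 (1.66, SE 0.25, adjusted p = 0.000619) were higher in lsd1-1. Their libraries did not overlap.

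GSTU20 (-0.90, SE 0.12, adjusted p = 0.00015), GSTF9 (-0.82, SE 0.13, adjusted p = 0.000457), GSTU17 (-0.71, SE 0.16, adjusted p = 0.00612) and GSTU16 (-0.59, SE 0.13, adjusted p = 0.0051) were lower in lsd1-1 than in LSD1-GFP. No difference was shown for GSTF8 (-0.08, SE 0.17, adjusted p = 0.792). GSTU5 was not called (-0.29, SE 0.29, adjusted p = 0.514), though with the replicate block it was (-0.31, adjusted p = 0.00121). The block brought the count to 25 members, 16 higher and 9 lower. It brought the count of all genes from 5159 to 6793, 3273 higher and 3520 lower. The calls of GSTU9, GSTU18, GSTU23 and GSTU27 were each lost with at least 1 library left out (highest edgeR adjusted p 0.146 for GSTU9, 0.127 for GSTU18, 0.13 for GSTU23 and 0.138 for GSTU27).

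**Figure D3:**
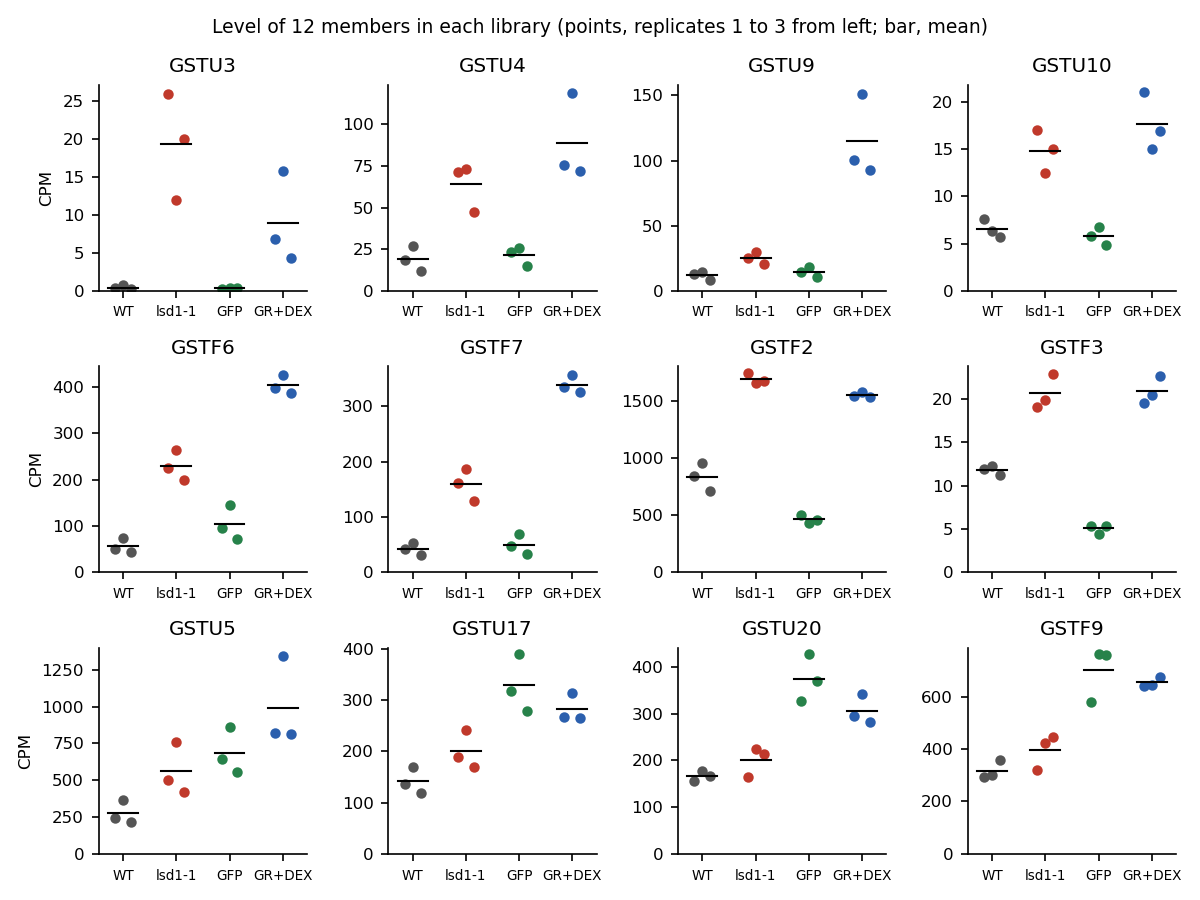
CPM (y axis, from 0) of 12 members in each library of wild type (WT), lsd1-1, LSD1-GFP (GFP) and LSD1-GR+DEX (GR+DEX), with the group mean as a bar. GSTU3, GSTU4, GSTU10, GSTF6, GSTF7, GSTF2 and GSTF3 were higher in lsd1-1 than in LSD1-GFP, and GSTU17, GSTU20 and GSTF9 were lower.

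The lines that overproduce LSD1 differed from each other in most members. LSD1-GR+DEX was higher than LSD1-GFP for 24 members and lower for 1, with 32.8% of all genes called, 16.5% higher and 16.2% lower. Among the 24 are GSTU3, GSTU11 and GSTU12, which passed the filter only through groups where they were high. GSTU9 (2.98, SE 0.25, adjusted p = 8.79e-06), GSTF7 (2.75, SE 0.25, adjusted p = 1.67e-05) and GSTF2 (1.74, SE 0.10, adjusted p = 6.69e-08) were among those higher, and GSTU16 was the lower member (-0.71, SE 0.13, adjusted p = 0.00114). No difference was called for GSTU17 (-0.22, SE 0.16, adjusted p = 0.323), GSTU20 (-0.29, SE 0.12, adjusted p = 0.088), GSTF9 (-0.10, SE 0.13, adjusted p = 0.594) or GSTU5 (0.53, SE 0.29, adjusted p = 0.191). With the replicate block edgeR's test called GSTU17 (adjusted p = 0.0132), GSTU20 (adjusted p = 0.00403) and GSTU5 (adjusted p = 6.7e-06), but not GSTF9 (adjusted p = 0.409). Calls of GSTU8, GSTU22, GSTU23, GSTU26 and GSTF8 were lost with at least 1 library left out (highest edgeR adjusted p 0.12, 0.0658, 0.096, 0.121 and 0.0906). LSD1 itself was lower in LSD1-GR+DEX than in LSD1-GFP, and treatment and transfer differed as well.

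Neighbours in an array did not all move together. In the array of GSTU1 to GSTU7, the log2 difference of lsd1-1 from wild type ran from -0.30 for GSTU7 to 5.43 for GSTU3, with GSTU3 and GSTU4 called. With the replicate block GSTU5 (1.02, adjusted p = 1.06e-08) and GSTU6 (0.82, adjusted p = 0.00517) were called higher there as well. In LSD1-GFP the called genes of this array were GSTU5 and GSTU6, while GSTU3 (-0.26, SE 1.18, adjusted p = 0.899) and GSTU4 (0.17, SE 0.34, adjusted p = 0.763) were not. GSTU3 had 14 counts in all in wild type and 11 in LSD1-GFP, too few to show whether it changed. LSD1-GR+DEX had 6 of the 7 genes higher, all but GSTU7, which stood at 35.1, 36.3 and 30.5 CPM in wild type and 36.96, 52.00 and 32.7 there. GSTU5 and GSTU6 are 77.7% identical in protein sequence and GSTU3 and GSTU4 75.6%. GSTU17 and GSTU18, which overlap over 71 bases on the same strand, went in opposite directions in LSD1-GFP and in LSD1-GR+DEX.

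**Figure D4:**
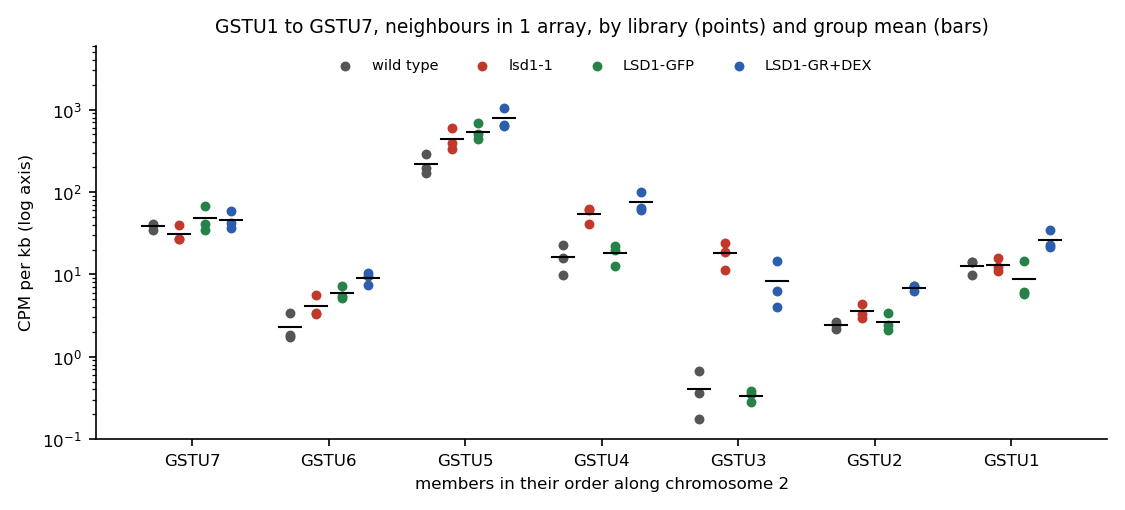
CPM per kb of transcript (log axis) of GSTU7 to GSTU1 in their order along chromosome 2, with libraries as points and group means as bars. GSTU3 and GSTU4 were higher in lsd1-1 and LSD1-GR+DEX, GSTU5 and GSTU6 in LSD1-GFP and LSD1-GR+DEX and, with the replicate block, in lsd1-1, and GSTU7 was not called in any comparison with wild type.

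Replicate 2 tended to have the highest levels of these genes in every group. It was the highest of 3 for 24 of 37 tested members in wild type, 22 in lsd1-1, 28 in LSD1-GFP and 29 in LSD1-GR+DEX. Over all genes tested, replicate 2 was the highest for 31.1%, 34.9%, 34.8% and 39% in the same groups. For GSTU5 this held in all 4 groups, with replicate 2 at 364, 757, 862 and 1345 CPM, each time the highest of 3. Without the libraries numbered 2, a setting chosen after seeing this, 18 of 39 tested members were called in lsd1-1 against wild type (17 higher), 12 in LSD1-GFP (8 higher) and 35 in LSD1-GR+DEX (32 higher). Among all 19565 genes tested in that setting, 1598 were called in lsd1-1 (1109 higher), 4097 in LSD1-GFP (2284 higher) and 6002 in LSD1-GR+DEX (3219 higher). What the replicate number stands for is not given in the sources used here.

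**Figure D5:**
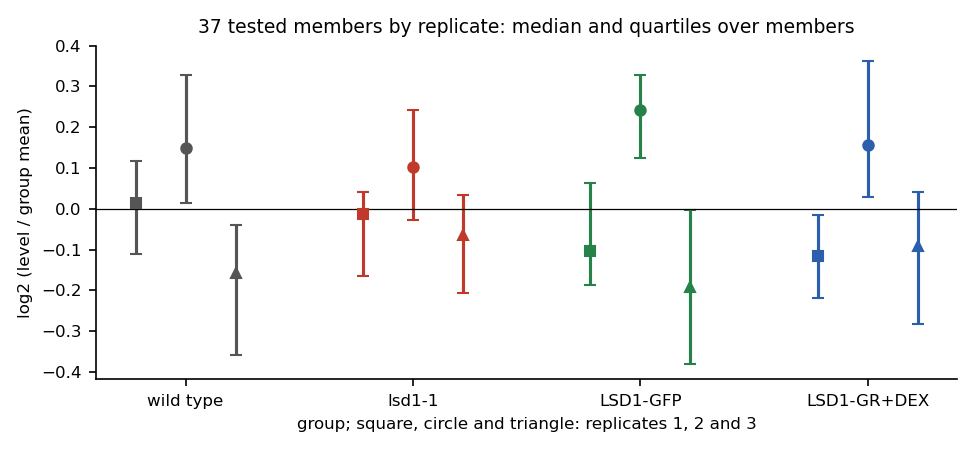
Log2 ratio of each library to its group mean over the 37 tested members (median and quartiles), by group and replicate. Replicate 2 had the highest median in all 4 groups.

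The wider glutathione pathway was read from 7 lists with 51 genes. Over all genes tested, the shares called higher and lower were 5.19% and 3.1% in lsd1-1, 15.5% and 13.6% in LSD1-GFP. The shares for LSD1-GR+DEX were 19.3% and 16.7%. Against these shares, a count of 1 or 2 genes in a list of this size is not a result about the list. Of 7 tested genes of glutathione synthesis and breakdown, 2 were higher in lsd1-1, 4 higher and 1 lower in LSD1-GFP, and 4 higher in LSD1-GR+DEX. GSH1, the rate-limiting enzyme of glutathione synthesis, was not called in lsd1-1 (0.06, SE 0.09, adjusted p = 0.791). GGP1, a peptidase that processes glutathione conjugates in camalexin and glucosinolate synthesis, rose in lsd1-1 (0.48, SE 0.12, adjusted p = 0.0227), LSD1-GFP (0.68, SE 0.12, adjusted p = 0.000826) and LSD1-GR+DEX (1.53, SE 0.12, adjusted p = 1.14e-06). Of 3 vacuolar conjugate transporters, ABCC3 rose in lsd1-1 (1.20, SE 0.23, adjusted p = 0.00849) and LSD1-GR+DEX (2.53, SE 0.24, adjusted p = 1.65e-05). ABCC2 rose in LSD1-GFP (0.37, SE 0.13, adjusted p = 0.0396) and LSD1-GR+DEX (0.69, SE 0.13, adjusted p = 0.000857).

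Other classes of glutathione transferase gave a mixed picture, with 1 of 11 tested genes higher in lsd1-1, 4 higher and 1 lower in LSD1-GFP, and 4 higher and 3 lower in LSD1-GR+DEX. GSTL1, of the lambda class, rose in lsd1-1 (2.10, SE 0.20, adjusted p = 3.68e-05) and in LSD1-GR+DEX (3.09, SE 0.20, adjusted p = 2.3e-07). DHAR1, which regenerates ascorbate, rose in LSD1-GFP (1.52, SE 0.15, adjusted p = 1.16e-05) and LSD1-GR+DEX (0.98, SE 0.15, adjusted p = 0.000201). Among 10 genes of the response to electrophiles and xenobiotics, 1 was higher in lsd1-1, 2 in LSD1-GFP and 5 in LSD1-GR+DEX, where 1 was lower. CYP81D8, a cytochrome P450 induced by xenobiotics, rose in lsd1-1 (1.66, SE 0.43, adjusted p = 0.0433) and LSD1-GR+DEX (2.51, SE 0.43, adjusted p = 0.00156). Of 7 genes for TGA factors and their partner SCL14, 1 was higher in lsd1-1, 1 higher and 1 lower in LSD1-GFP, and 2 higher in LSD1-GR+DEX. TGA3 was called in lsd1-1 (0.49, SE 0.14, adjusted p = 0.0419), LSD1-GFP (0.56, SE 0.14, adjusted p = 0.00733) and LSD1-GR+DEX, where it stood at 16.2 ± 1.71 CPM (SD, n = 3) against 7.59 ± 0.743 in wild type (edgeR adjusted p = 3.19e-05).

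Camalexin genes, the partners of GSTF6, were higher in 4 of 5 cases in lsd1-1, 2 of 5 in LSD1-GFP and 5 of 5 in LSD1-GR+DEX. CYP71A12, an enzyme of the indole branch, stood at 3.705 ± 0.139 CPM (SD, n = 3) in wild type and 35.4 ± 2.58 in lsd1-1 (3.25, SE 0.22, adjusted p = 5.29e-06), and at 4.06 ± 2.32 in LSD1-GFP (0.14, SE 0.28, adjusted p = 0.748). PAD3, which completes camalexin, rose from 10.6 ± 4.23 to 98.7 ± 10.8 CPM in lsd1-1 (3.22, SE 0.31, adjusted p = 0.000214). It reached 125 ± 41.3 in LSD1-GR+DEX (3.56, SE 0.32, adjusted p = 1.82e-05). Anthocyanin genes, the partners of GSTF12, were higher for 4 of 4 tested genes in LSD1-GR+DEX, and edgeR's test called 0 of 4 in lsd1-1 and in LSD1-GFP, where 0 and 2 had an unadjusted p below 0.05. DFR rose by 2.04, SE 0.32, adjusted p = 0.000242, and LDOX by 1.96, SE 0.41, adjusted p = 0.00262, where in LSD1-GFP the differences were 0.80, SE 0.35, adjusted p = 0.0986 and 0.71, SE 0.46, adjusted p = 0.271.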

How the data were processed

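Per the labels, messenger RNA libraries were made with a stranded kit in 3 biological repeats. The submitters' processing notes name HTSeq 0.6.1, Trimmomatic 0.30 and GSNAP as tools and TAIR10 as the build. The deposited table holds raw counts per gene model, with no normalization. Reads of Ws-0 were thus counted on a Col-0 reference.

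Counts were tested in R 4.3.3 with edgeR 4.0.16: filterByExpr, TMM scaling and a robust quasi-likelihood fit of all 12 libraries with 1 mean per group, two-sided, adjusted by Benjamini-Hochberg over 19487 genes. Levels are TMM-scaled CPM, and an SE is the log2 difference divided by the square root of F. Total counts of 9781360 to 11503432 limit genes below 1 CPM most. The steps were tested on simulated data.

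Alternatives were RLE size factors, DESeq2 1.42.0, limma 3.58.1 voom, other filters, the 2 groups alone, a 1.5-fold test, near-identical members summed, a replicate block and each library left out. Same-numbered libraries of wild type, lsd1-1 and LSD1-GFP deviated together, with correlations over all tested genes of 0.138 to 0.469. Each was above the correlations with other numbers. Genes are not independent and each group has 3 libraries, so pairing is not established and the block is an alternative only.

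Values per library are given for the 6 largest rises and falls per comparison with wild type (called, at least 5 CPM, no overlap), the 4 members highest per kb and GSTF2, GSTF6, GSTF7, GSTF8, GSTU20 and GSTF12, and for other members where they sit beside these. Members, lists and rule were chosen with earlier results of these data known. Upstream sequences and protein identities were read from the RefSeq TAIR10.1 genome and annotation with Biopython 1.88.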

Additional observations from a re-analysis of the deposited data

How the results depend on the processing

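No called value of a member changed direction under any alternative, and values that were not called have no direction to keep. RLE size factors and the replicate block kept all 99 called member values over the 5 comparisons, DESeq2 kept 97, limma voom 98, and no low-count filter 96. A test against a 1.5-fold change kept 52. Under it 5 members were called in lsd1-1, 4 in LSD1-GFP and 20 in LSD1-GR+DEX against wild type, 7 in lsd1-1 against LSD1-GFP and 16 in LSD1-GR+DEX against LSD1-GFP, and all genes called fell to 251, 602, 1305, 685 and 1140. With the replicate block, lsd1-1 against wild type had 20 members and 2889 genes called, in place of 13 and 1617, and the block ended no member's call.

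With each library left out in turn, members called ranged from 7 to 15 in lsd1-1, 11 to 13 in LSD1-GFP and 30 to 34 in LSD1-GR+DEX against wild type, 13 to 17 in lsd1-1 against LSD1-GFP and 21 to 26 in LSD1-GR+DEX against LSD1-GFP. All genes called ranged from 764 to 1375, 4157 to 5263, 5566 to 6526, 3646 to 4479 and 4996 to 6165.

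For LSD1-GR+DEX, same-numbered libraries did not all deviate together. Replicate 1 correlated at 0.0355 with wild type and -0.034 with LSD1-GFP, and did not correlate best with its own number in either. Replicates 2 and 3 gave 0.22 and 0.314 with wild type. With LSD1-GFP they gave 0.123 and 0.328, and replicate 2 correlated better with another number there (0.19). The block moved the members called in LSD1-GR+DEX from 31 to 33 against wild type, where all genes called moved from 7015 to 8541. Against LSD1-GFP the block added GSTU17 (-0.21, adjusted p = 0.0132), GSTU20 (-0.28, adjusted p = 0.00403) and GSTU5 (0.52, adjusted p = 6.7e-06). It also added GSTU6 (0.61, adjusted p = 0.00315) and GSTF11 (0.42, adjusted p = 0.0256). The causes were not tested. Depth limits GSTU3, GSTU11 and GSTU12, which had few counts in wild type and in LSD1-GFP.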
